A study of Mus musculus with 6 samples.

Results

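DNA replication genes were lower in lineage-depleted mouse bone marrow labelled Stag2KO than in marrow labelled Stag2WT. The genes are 46 named components of the replication machinery, from origin licensing to nucleosome assembly, picked by symbol among the 33924 genes of the deposited count table and sorted into 10 steps by the known role of each gene. All 46 were found in the table and all 46 passed the filter on low counts. With edgeR's quasi-likelihood test and Benjamini-Hochberg adjustment over all tested genes, 29 fell at an adjusted p under 0.05, 0 rose and 17 did not pass. The background was high: of 15708 genes tested, 21.2% passed in either direction, 10.5% lower and 10.7% higher in Stag2KO.

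RNA was sequenced from 3 Stag2KO and 3 Stag2WT libraries of whole bone marrow from which mature cells had been removed with antibodies to lineage markers on magnetic beads. STAG2 belongs to cohesin, which encircles DNA, keeps replicated sister chromatids paired until they separate and extrudes loops of chromatin. The labels give the genotype only as Stag2KO or Stag2WT. They name no deleted exon, Cre driver, age or sex, and do not say whether each library came from an animal of its own. The p-values here therefore reflect the scatter of these 6 libraries alone, part of which may be technical.

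Replication is prepared in G1, when the origin recognition complex, CDC6 and CDT1 load the MCM helicase onto DNA. Cyclin E with CDK2 and the DBF4-dependent kinase then activate the helicase together with CDC45 and GINS, and polymerase alpha with primase, PCNA and polymerases delta and epsilon copy the strands. Many of these genes are transcribed at the G1/S boundary under E2F factors, and their RNA is abundant in cycling progenitors and low in resting or mature cells. In bulk RNA, fewer cycling cells and less RNA per cell cannot be told apart.

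Since E2F sites are the best known control element of replication genes, promoter sequences were read for the members, from RefSeq on GRCm38.p6, as windows of 250 bases before to 50 bases after each annotated start. Windows were given for 37 of the 46 members, 45 windows in all. The search took the E2F words TTTCCCGC, TTTGGCGC, TTTCGCGC and TTTGCCGC on both strands. Stretches of 7 of the members with a word are shown as examples from both sides of the threshold, picked after their values were seen: 4 that fell (Cdc6, Cdt1, Mcm5 and Rfc3) and 3 that did not pass (Mcm6, Pold1 and Dnmt1). Each runs 5′ to 3′ on the gene's strand, and the capitals mark the E2F words.
Cdc6, chr11:98907995-98908038, plus strand: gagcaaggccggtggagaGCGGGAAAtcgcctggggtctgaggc
Cdt1, chr8:122568036-122568064, plus strand: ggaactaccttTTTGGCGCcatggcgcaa
Mcm5, chr8:75109338-75109385, plus strand: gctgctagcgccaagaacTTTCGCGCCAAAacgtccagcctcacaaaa
Rfc3, chr5:151651183-151651236, minus strand: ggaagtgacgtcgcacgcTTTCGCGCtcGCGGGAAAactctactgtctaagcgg
Mcm6, chr1:128359727-128359833, minus strand: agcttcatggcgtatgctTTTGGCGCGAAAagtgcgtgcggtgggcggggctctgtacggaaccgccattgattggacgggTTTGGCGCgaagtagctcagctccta
Pold1, chr7:44548766-44548787, minus strand: cgtatcttgtgGCGGGAAAagc
Dnmt1, chr9:20952574-20952601, minus strand: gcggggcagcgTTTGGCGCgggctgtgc

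In the Mcm5 and Mcm6 stretches a word on one strand shares 4 bases with a word on the other. The Cdc6 word lies at position -138 from the annotated start, the Cdt1 word at 32, and the Rfc3 words at -10 and 0. The Dnmt1 word shown lies at 33, and another word of the same window, at -219, lies outside the stretch shown. E2F words were found in 13 of 45 member windows (28.9%), against 744 of 32851 windows of all genes (2.26%) and 470 of 12741 windows of the genes tested here (3.69%). Among member windows they stood in 9 of the 28 windows of genes that fell (32.1%) and in 4 of the 17 windows of genes that did not pass (23.5%). Genes with a word were thus found on both sides of the threshold. The other promoter words searched were CCAAT, found in 55.6% of member windows against 37.4% of all windows, and the cell cycle homology words TTTGAA and TTCGAA, found in 15.6% against 19.2%. With the window cut to 150 bases before the start, E2F words were in 26.7% of member windows and 1.66% of all windows. A match is a description of the letters, not evidence of binding.

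**Figure D1:**
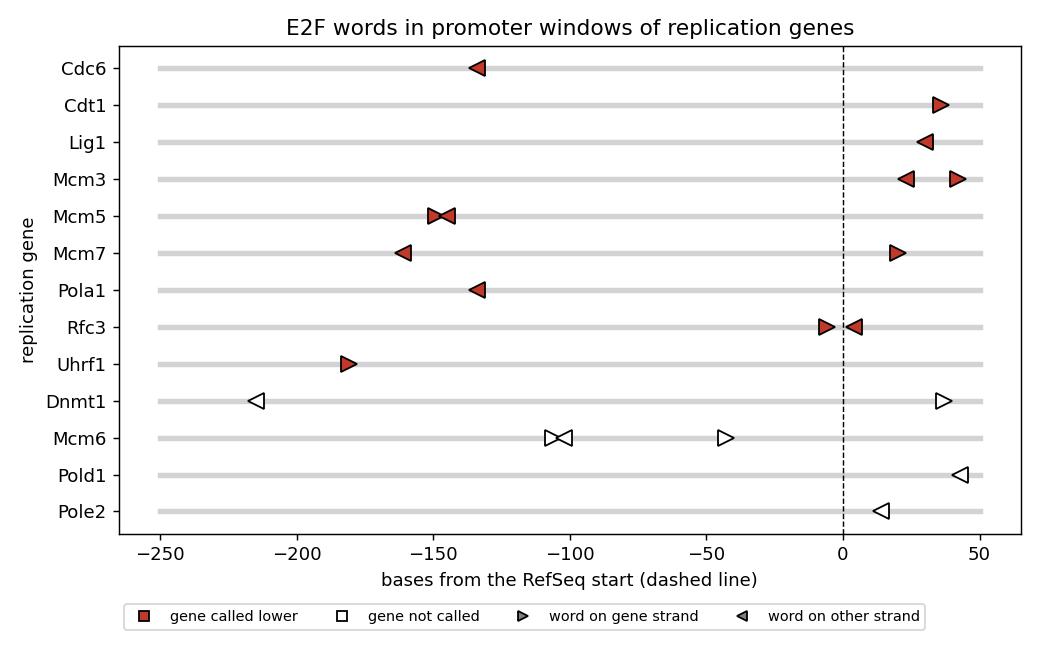
Position of each E2F word in the promoter windows of the 13 replication genes that hold one, in bases from the RefSeq start, with filled marks for genes lower in Stag2KO and open marks for genes that did not pass the test. Words lie on both strands and on both sides of the start, in 9 genes that fell and in 4 that did not pass.

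The libraries held 29435651 to 37722325 reads assigned to genes. Levels are CPM (reads of a gene scaled to a common library size) with edgeR's TMM scaling, given in the order of replicates 1, 2 and 3, and fold changes are Stag2KO over Stag2WT. Stag2 itself had 169, 187 and 183 CPM in Stag2KO libraries, against 338, 329 and 324 CPM in Stag2WT libraries, a log2 fold change of -0.88 (SE 0.06, edgeR adjusted p = 0.000278). The groups did not overlap, though reads over the whole gene are counted and the deleted part is not known here. The progenitor marker Kit was well above 0 in every library, at 228 to 266 CPM in Stag2KO and 221 to 252 CPM in Stag2WT. Markers of single blood lineages were also present, such as the B lineage factor Pax5, at low levels of 0.891 to 1.65 CPM in Stag2KO and 7.20 to 9.96 CPM in Stag2WT. Whether this RNA came from mature cells or from precursors was not tested.

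One library in each group stood apart on these genes. Stag2KO replicate 3 was the lowest of the 3 Stag2KO libraries in 42 of 46 members, and Stag2WT replicate 2 was the highest of all 6 libraries in 42. Set against the mean of the other Stag2WT libraries, Stag2WT replicate 2 had a median ratio of 1.18 over the members and of 0.995 over all tested genes. The share of sequenced reads that fell in no gene also separated the groups, at 11.1%, 12.8% and 11.2% in Stag2KO libraries against 8.84%, 8.81% and 10.1% in Stag2WT libraries.

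Summed over the 46 genes, the level was 7650, 7443 and 6859 CPM in Stag2KO libraries, against 8673, 10140 and 8730 CPM in Stag2WT libraries. All 3 Stag2KO sums lay under all 3 Stag2WT sums, and the mean was 20.3% lower (7318 ± 410 against 9181 ± 831 CPM, SD, n = 3 each). The sum was 17.8% lower without Stag2KO replicate 3 and 15.9% lower without Stag2WT replicate 2. Of the 46 members, 45 had a negative fold change, and the median was -0.33 on the log2 scale, beside 0.01 over all tested genes. All 3 Stag2KO libraries were under all 3 Stag2WT libraries in 36 members, beside 21.2% of all tested genes; these 36 include each of the 29 that fell and 7 of the 17 that did not pass. Changes were modest: the log2 fold changes of the 29 ranged from -0.74 to -0.28, and those of the other 17 ranged from -0.33 to 0.02.

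How many members passed depended on single libraries. The count of 29 became 18 without Stag2KO replicate 1, 11 without Stag2KO replicate 2, 7 without Stag2KO replicate 3, 25 without Stag2WT replicate 1, 15 without Stag2WT replicate 2 and 27 without Stag2WT replicate 3. Each of these fits has 5 libraries in place of 6, and the share of all tested genes that were lower also shrank, to 6.13%, 5.65%, 6.28%, 7.67%, 6.39% and 8.18% in the same order, from 10.5% with all libraries. In each of them 45 or 46 members kept a negative fold change. The same 7 genes passed in all 6 of them: Cdc6, Gmnn, Mcm10, Pola1, Dut, Uhrf1 and Esco2. Another 4, namely Cdt1, Mcm2, Mcm7 and Rrm1, were lost only without Stag2KO replicate 3. With both Stag2KO replicate 3 and Stag2WT replicate 2 left out, an alternative added after the data were seen, 9 members passed, 44 were negative and the median was -0.21, while 5.31% of all tested genes were lower. With the share of reads in no gene as a covariate, 0 members passed with edgeR, 43 were negative and the median was -0.26; only 67 genes of the whole table passed in that fit.

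**Figure D2:**
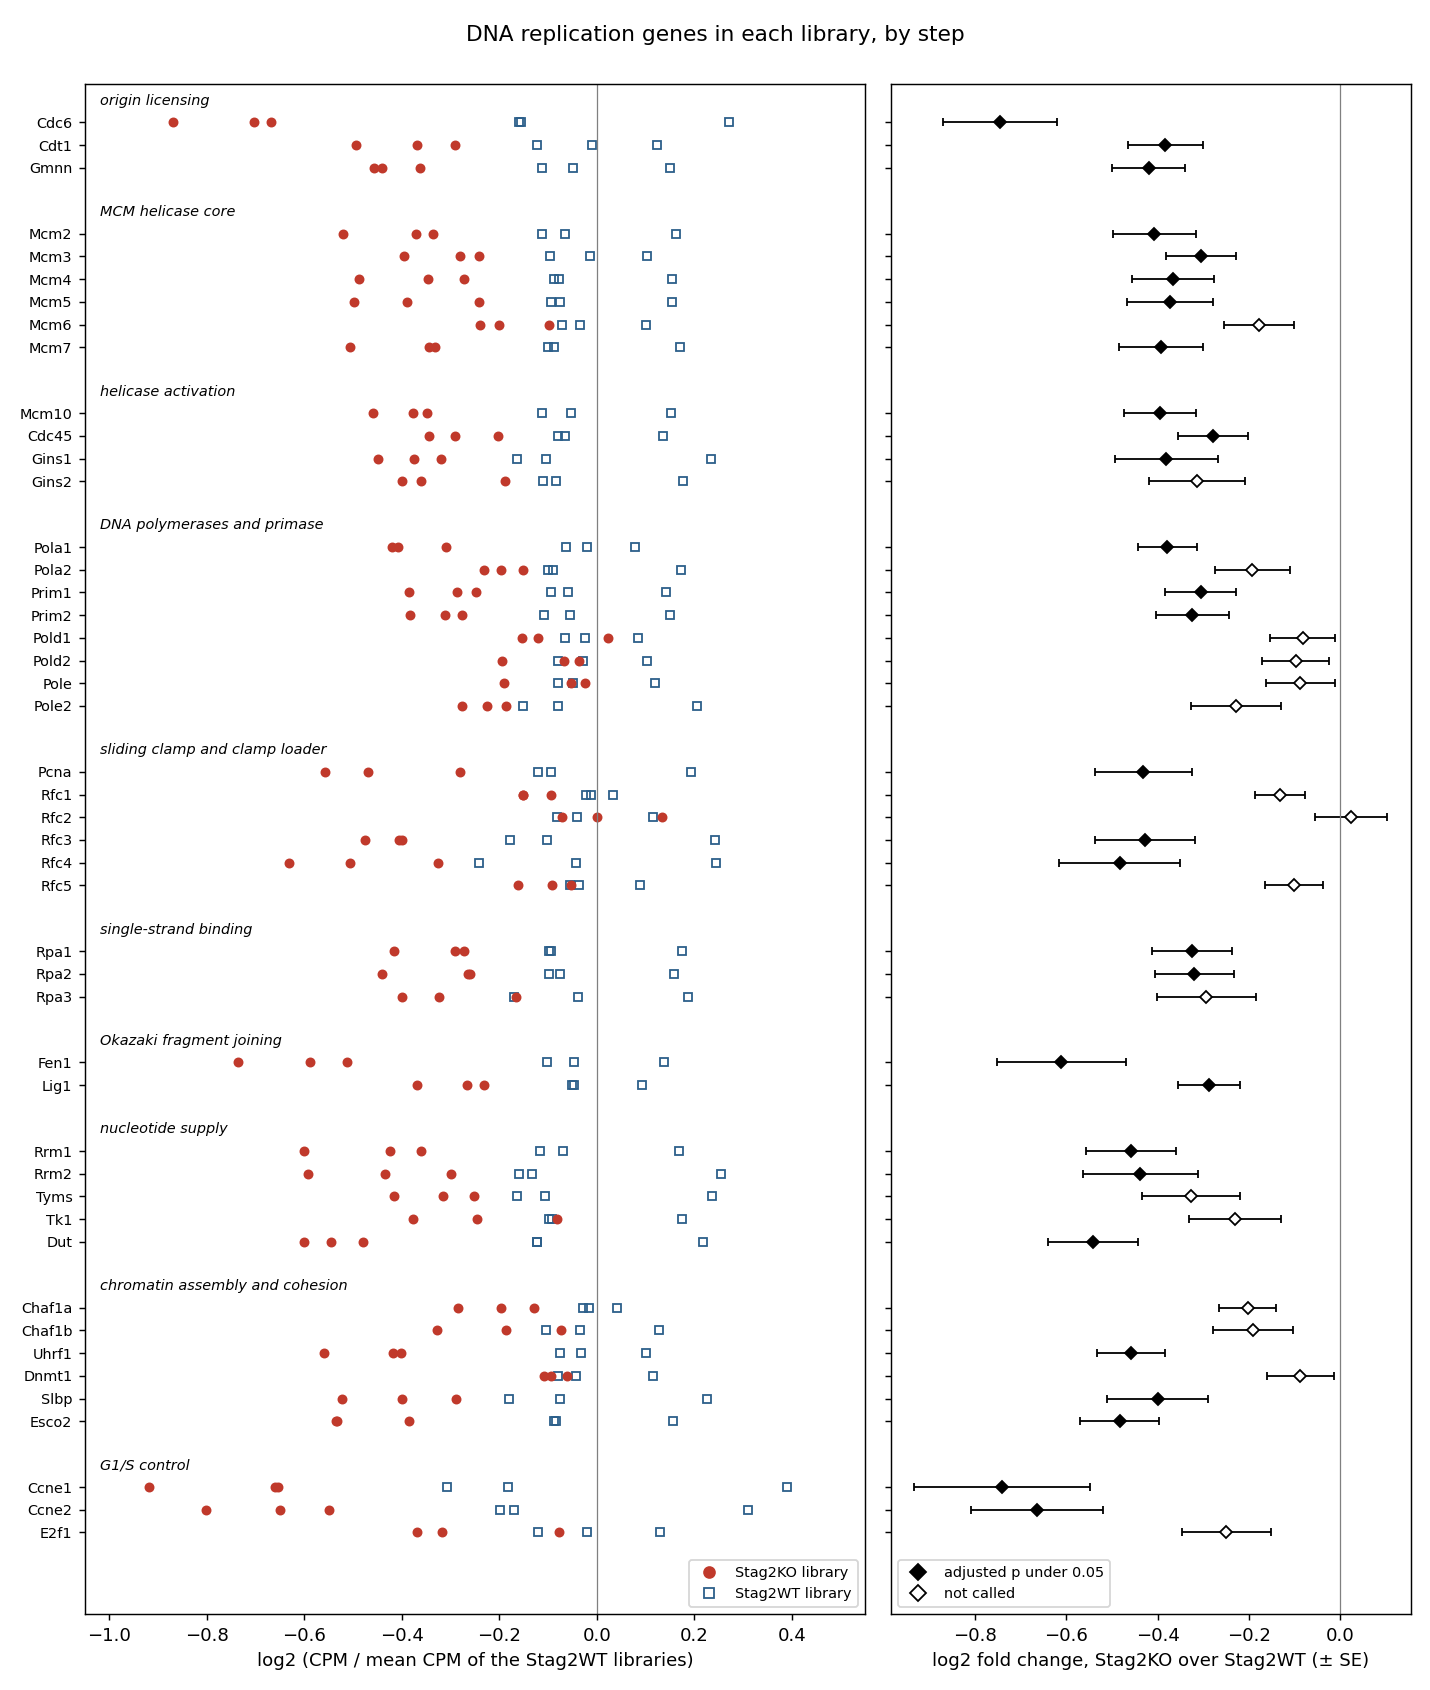
Level of each of the 46 genes in each library as log2 of its CPM over the mean of the 3 Stag2WT libraries (left), and its log2 fold change with SE (right), by step. Stag2KO points (filled circles) lie left of all Stag2WT points (open squares) in 36 genes; filled diamonds mark the 29 genes with an edgeR adjusted p under 0.05.

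All 3 origin licensing genes fell, with a median log2 fold change of -0.42. Cdc6, the ATPase that loads the MCM helicase with the origin recognition complex, had 111, 114 and 99.3 CPM in Stag2KO libraries, against 163, 219 and 162 CPM in Stag2WT libraries. Its log2 fold change was -0.74 (SE 0.12, edgeR adjusted p = 0.00709), the most negative among the members, a mean 40.3% lower. Even the highest Stag2KO library was well under the lowest Stag2WT library. Cdt1, which brings MCM to the origin, had 119.7, 113 and 104 CPM in Stag2KO libraries, against 135, 159.6 and 145 CPM in Stag2WT libraries (log2 fold change -0.38, SE 0.08, edgeR adjusted p = 0.0154). Gmnn encodes geminin, the inhibitor that keeps CDT1 from loading MCM again after S phase begins. It had 64.1, 67.7 and 63.3 CPM in Stag2KO libraries, against 84.1, 96.5 and 80.4 CPM in Stag2WT libraries (log2 fold change -0.42, SE 0.08, edgeR adjusted p = 0.00943). Neither gene's groups overlapped, and Cdt1 was lost only without Stag2KO replicate 3 (adjusted p = 0.0522). The log2 ratio of the loader to its inhibitor averaged 0.79 ± 0.10 in Stag2KO libraries and 0.75 ± 0.09 in Stag2WT libraries (SD, n = 3 each), with a two-sided exact permutation p of 0.6, also after adjustment over the 4 ratios compared. With 3 libraries against 3 that test cannot go below 0.1. A Cdc6 pseudogene, Gm9430, matches 1528 bases of the Cdc6 transcript at 95.2% identity, and a Gmnn pseudogene, Gm6510, matches 491 bases at 93.5%.

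Of the 6 subunits of the MCM2-7 ring, the motor of the replicative helicase, 5 fell and Mcm6 did not pass. Mcm2 had 335, 327 and 295 CPM in Stag2KO libraries, against 404, 473 and 391 CPM in Stag2WT libraries (log2 fold change -0.41, SE 0.09, edgeR adjusted p = 0.0173). Mcm7 had 348, 345 and 308 CPM in Stag2KO libraries, against 412, 493 and 408 CPM in Stag2WT libraries (-0.39, SE 0.09, adjusted p = 0.0212). Both show the pattern common to the ring, with Stag2KO replicate 3 lowest and Stag2WT replicate 2 highest and no overlap between the groups. Mcm4 had 314, 299 and 271 CPM in Stag2KO libraries, against 357, 422 and 359.5 CPM in Stag2WT libraries (-0.37, SE 0.09, adjusted p = 0.0244). Mcm3 had 359, 349.7 and 323 CPM in Stag2KO libraries, against 397, 456 and 421 CPM in Stag2WT libraries (-0.30, SE 0.08, adjusted p = 0.0266). In these 2 genes as well, every Stag2KO library was under every Stag2WT library. Mcm5 fell by 22.8% (edgeR adjusted p = 0.0281). Mcm6 averaged 583 ± 29.6 CPM in Stag2KO libraries and 660.0 ± 42.2 CPM in Stag2WT libraries (SD, n = 3 each), a log2 fold change of -0.18 with an edgeR adjusted p of 0.129, and its groups did not overlap either. Whether Mcm6 differs in its change from the other 5 was not tested. Mcm3 passed in only 1 of the 6 fits that leave out a library, and Mcm4 and Mcm5 in 3 each. An Mcm7 pseudogene, Gm5487, matches 2157 bases of the Mcm7 transcript at 97.7% identity, and an Mcm4 pseudogene, Gm9577, matches 1861 bases at 91.1%, so reads of these genes may be split or lost in counting.

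In the helicase activation step, 3 of 4 genes fell. Mcm10, which is needed for the loaded helicase to start unwinding, had 91.1, 92.9 and 86.1 CPM in Stag2KO libraries, against 109, 131 and 114 CPM in Stag2WT libraries. The log2 fold change was -0.39 (SE 0.08, edgeR adjusted p = 0.0119), and the groups were clearly apart. CDC45 and the GINS complex join MCM to form the active helicase. Cdc45 had 89.9, 81.4 and 84.5 CPM in Stag2KO libraries, against 97.8, 114 and 98.8 CPM in Stag2WT libraries (-0.28, SE 0.08, adjusted p = 0.0359). Gins1 had 30.1, 31.2 and 28.6 CPM in Stag2KO libraries, against 34.8, 45.9 and 36.3 CPM in Stag2WT libraries (-0.38, SE 0.11, adjusted p = 0.0458). Neither overlapped, but both passed in only 1 of the 6 fits that leave out a library. Gins2 did not pass (-0.31, edgeR adjusted p = 0.0664), and its transcript shares 2758 bases with the gene Gse1 on the opposite strand. For Mcm10 the log2 ratio to the mean of Mcm2 to Mcm7 was -0.07 in Stag2KO minus Stag2WT (exact permutation p = 0.1, the smallest possible, and 0.4 adjusted over the 4 ratios).

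**Figure D3:**
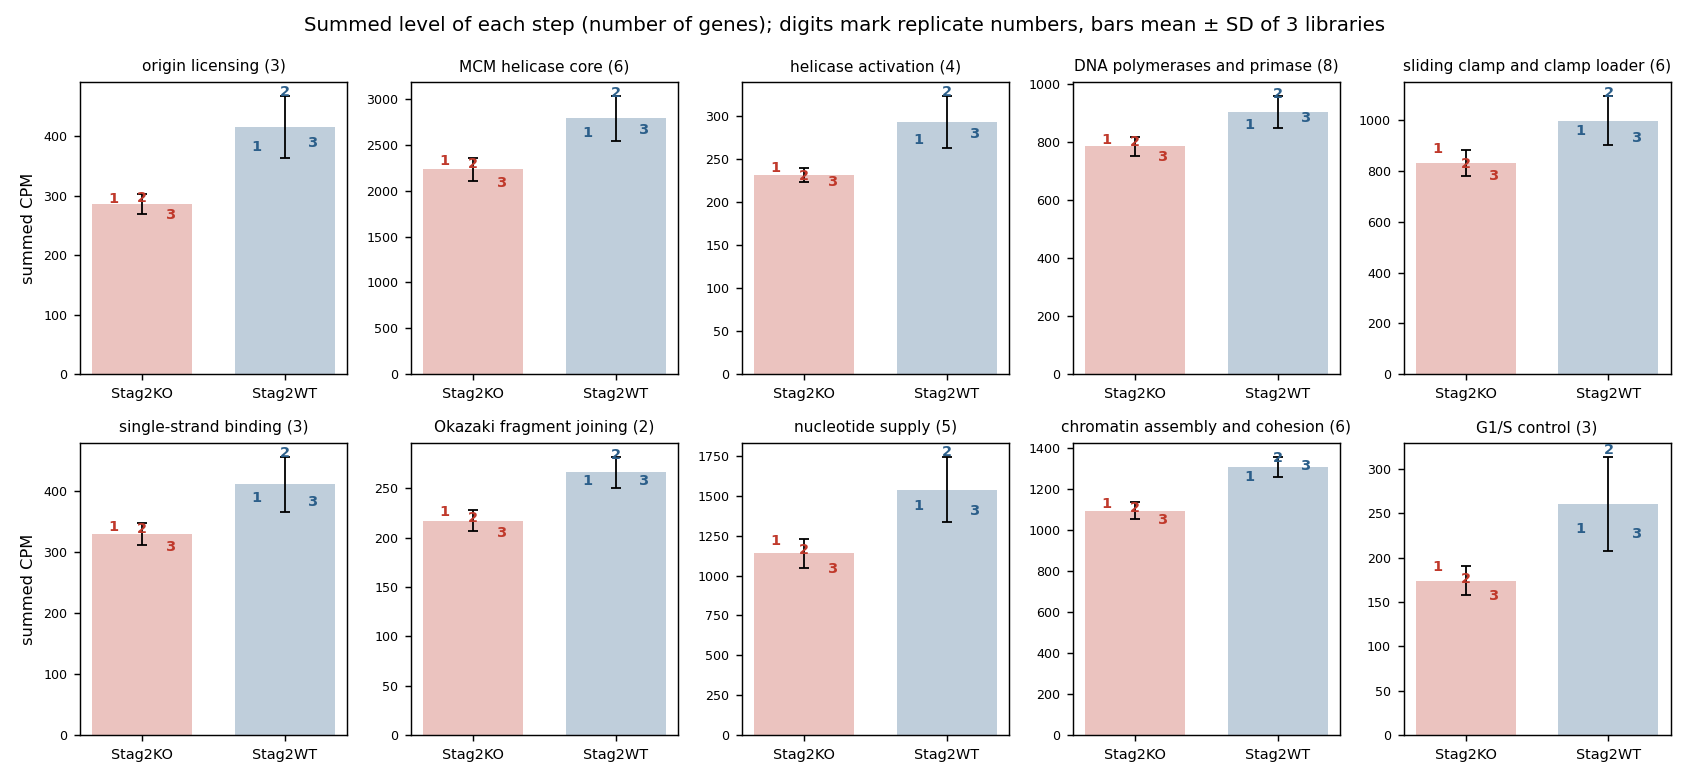
Summed CPM of the genes of each of the 10 steps, with bars for the mean of 3 libraries, error bars for the SD and digits for the replicate numbers, Stag2KO left and Stag2WT right. The 3 Stag2KO sums lie under the 3 Stag2WT sums in every step, from 13.1% lower for the polymerases to 33.2% lower for G1/S control.

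Polymerase alpha with primase starts each new strand, and polymerases delta and epsilon extend it. Of the 4 member genes of polymerase alpha and primase, 3 fell, and of the 4 member genes of the extending enzymes 0 passed, though Pole3, a further subunit of polymerase epsilon outside the 46, fell (log2 fold change -0.41, edgeR adjusted p = 0.015). Pola1, the catalytic subunit of polymerase alpha, had 106, 114 and 105 CPM in Stag2KO libraries, against 135, 149 and 139 CPM in Stag2WT libraries, with a log2 fold change of -0.38 (SE 0.06, edgeR adjusted p = 0.00613). Its groups were clearly apart and tight. Prim2, the large primase subunit, had 62.9, 61.3 and 58.3 CPM in Stag2KO libraries, against 73.3, 84.4 and 70.6 CPM in Stag2WT libraries (-0.32, SE 0.08, adjusted p = 0.0256). Prim1, the catalytic primase subunit, had 105, 102 and 95.8 CPM in Stag2KO libraries, against 117, 138 and 120.0 CPM in Stag2WT libraries (-0.31, SE 0.08, adjusted p = 0.0284). In both primase genes the groups did not overlap; Prim2 passed in 3 and Prim1 in 2 of the 6 fits that leave out a library. Pold1 and Pold2 of polymerase delta and Pole of polymerase epsilon had log2 fold changes of -0.08, -0.10 and -0.09, with edgeR adjusted p of 0.43, 0.366 and 0.43, and their groups overlapped. Pold1 averaged 158 ± 10.4 CPM in Stag2KO libraries and 167 ± 9.12 CPM in Stag2WT libraries, and Pole averaged 129 ± 7.76 CPM in Stag2KO libraries and 137 ± 10.4 CPM in Stag2WT libraries (SD, n = 3 each). Pola2 (-0.19) and Pole2 (-0.23) did not pass, without overlap between groups. The difference between priming and extending subunits was not itself tested.

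PCNA is the ring that clamps polymerases to DNA, and replication factor C is the 5-subunit loader that opens it. Pcna had 365, 320.0 and 301 CPM in Stag2KO libraries, against 415, 506 and 408 CPM in Stag2WT libraries (log2 fold change -0.43, SE 0.11, edgeR adjusted p = 0.0253). The Stag2KO libraries were all lower, and Stag2WT replicate 2 stood well above the others. Rfc3 had 43.4, 43.6 and 41.3 CPM in Stag2KO libraries, against 53.6, 68.1 and 50.9 CPM in Stag2WT libraries (-0.43, SE 0.11, adjusted p = 0.0288). Rfc4 had 54.6, 48.2 and 44.1 CPM in Stag2KO libraries, against 66.4, 81.0 and 57.8 CPM in Stag2WT libraries (-0.48, SE 0.13, adjusted p = 0.0378). Both subunits were without overlap, Rfc4 by the narrower gap; Pcna and Rfc3 passed in 3 and Rfc4 in 2 of the 6 fits that leave out a library. The other loader subunits did not pass: Rfc1, the large subunit, had a log2 fold change of -0.13, Rfc5 of -0.10 and Rfc2 of 0.02. Rfc2 was the one member with a positive value, at 162 ± 11.9 CPM in Stag2KO libraries and 159.7 ± 11.8 CPM in Stag2WT libraries (SD, n = 3 each), and its sign turned negative without Stag2KO replicate 1 or without Stag2WT replicate 3. The pseudogene Pcna-ps2 matches 781 bases of the Pcna transcript at 99.2% identity. An exon of Rfc2 overlaps the gene Lat2 on the opposite strand by 952 bases.

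RPA coats single-stranded DNA at the fork, and 2 of its 3 subunits fell. Rpa1, the large subunit, had 202, 205 and 186 CPM in Stag2KO libraries, against 232, 279.6 and 231 CPM in Stag2WT libraries (log2 fold change -0.32, SE 0.09, edgeR adjusted p = 0.0346). Rpa2 had 100.3, 99.98 and 88.6 CPM in Stag2KO libraries, against 114, 134 and 112 CPM in Stag2WT libraries (-0.32, SE 0.09, adjusted p = 0.0346). The groups were apart in both, and each passed in 2 of the 6 fits that leave out a library. Rpa3 did not pass (-0.29, adjusted p = 0.0868), with overlapping groups.

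Both genes of Okazaki fragment joining fell. Lig1, the ligase that seals the fragments, had 221, 215 and 201 CPM in Stag2KO libraries, against 251, 276 and 250.2 CPM in Stag2WT libraries (log2 fold change -0.29, SE 0.07, edgeR adjusted p = 0.0221). Fen1, the flap nuclease that trims them, had 5.11, 4.85 and 4.37 CPM in Stag2KO libraries, against 6.79, 8.02 and 7.05 CPM in Stag2WT libraries (-0.61, SE 0.14, adjusted p = 0.0205). Neither gene's groups overlapped, and each passed in 3 of the 6 fits that leave out a library. The Fen1 level is uncertain, because an antisense gene, Gm10143, covers 1909 bases of its exon and no source used here gives the strand setting of the counting, so reads in the overlap may go uncounted.

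Among 5 genes of nucleotide supply, 3 fell. Dut, the dUTPase that keeps uracil out of DNA, had 170.1, 178 and 164 CPM in Stag2KO libraries, against 228, 289 and 228 CPM in Stag2WT libraries (log2 fold change -0.54, SE 0.10, edgeR adjusted p = 0.00824). It was 31.3% lower, with a wide gap between the groups. Ribonucleotide reductase makes deoxynucleotides. Its large subunit Rrm1 had 495, 474 and 419 CPM in Stag2KO libraries, against 606, 715 and 586 CPM in Stag2WT libraries (-0.46, SE 0.10, adjusted p = 0.0159). Its small subunit Rrm2 had 335, 305 and 273 CPM in Stag2KO libraries, against 376, 492 and 369 CPM in Stag2WT libraries (-0.44, SE 0.13, adjusted p = 0.0446). Both subunits were lower in every Stag2KO library, but Rrm2 passed in only 1 of the 6 fits that leave out a library. The log2 ratio of Rrm2 to Rrm1 was higher by 0.03 in Stag2KO (exact permutation p = 0.6). The thymidylate genes Tyms, which makes dTMP, and Tk1, which salvages thymidine, had log2 fold changes of -0.33 and -0.23 and did not pass (edgeR adjusted p = 0.0643 and 0.135). Tyms groups did not overlap and Tk1 groups did.

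Chromatin assembly and cohesion genes were divided, with 3 of 6 lower. Uhrf1, which reads hemimethylated DNA behind the fork and recruits DNMT1, had 246, 243 and 220.3 CPM in Stag2KO libraries, against 308, 348 and 317 CPM in Stag2WT libraries (log2 fold change -0.46, SE 0.07). Its edgeR adjusted p of 0.00502 was the smallest of the 46. Esco2, the acetyltransferase that establishes cohesion on cohesin during S phase, had 53.8, 59.7 and 53.9 CPM in Stag2KO libraries, against 73.5, 87.0 and 73.6 CPM in Stag2WT libraries (-0.48, SE 0.09, adjusted p = 0.00745). In both genes the groups were far apart. Slbp, which binds the stem-loop of replication-dependent histone mRNAs, had 168, 155 and 143 CPM in Stag2KO libraries, against 194, 239.5 and 181 CPM in Stag2WT libraries (-0.40, SE 0.11, adjusted p = 0.0382), and passed in 1 of the 6 fits that leave out a library. Dnmt1, the maintenance DNA methyltransferase, averaged 497 ± 8.48 CPM in Stag2KO libraries and 528 ± 38.4 CPM in Stag2WT libraries (SD, n = 3 each; -0.09, adjusted p = 0.413). Its groups overlapped, although the Stag2WT libraries of its partner Uhrf1 were all higher. Chaf1a and Chaf1b, the large and middle subunits of the histone chaperone CAF-1, had log2 fold changes of -0.20 and -0.19 and did not pass; Chaf1a was just short of the threshold, with an edgeR adjusted p of 0.0514. A Uhrf1 pseudogene, Gm5648, matches 1590 bases of the Uhrf1 transcript at 98.3% identity, and an exon of Chaf1a overlaps the gene Ubxn6 on the opposite strand by 2542 bases.

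The E-type cyclins, which drive CDK2 at the G1/S boundary, had the most negative fold changes among the members after Cdc6. Ccne1 had 71.1, 70.9 and 59.3 CPM in Stag2KO libraries, against 98.8, 147 and 90.5 CPM in Stag2WT libraries (log2 fold change -0.74, SE 0.19, edgeR adjusted p = 0.0409). Ccne2 had 58.8, 54.9 and 49.4 CPM in Stag2KO libraries, against 76.5, 107 and 75.0 CPM in Stag2WT libraries (-0.66, SE 0.15, adjusted p = 0.0204). All Stag2KO libraries were lower in both, and Stag2WT replicate 2 was far above the other Stag2WT libraries. Ccne1 passed in 2 and Ccne2 in 4 of the 6 fits that leave out a library, and Ccne1 also lost its call without the filter on low counts (adjusted p = 0.102). The ratio of Ccne2 to Ccne1 differed by 0.06 on the log2 scale (exact permutation p = 0.5). E2f1, the factor that activates many replication genes, averaged 52.5 ± 5.81 CPM in Stag2KO libraries and 62.3 ± 5.5 CPM in Stag2WT libraries (SD, n = 3 each). With a log2 fold change of -0.25 and an edgeR adjusted p of 0.104 it did not pass, and its groups overlapped.

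Other genes of the pathway came from lists of known replication factors that are not members. Of 67 tested, 18 fell, 2 rose and 47 did not pass. The 18 became 11 without Stag2KO replicate 3, 12 without Stag2KO replicate 2 or without Stag2WT replicate 2, 3 without both Stag2KO replicate 3 and Stag2WT replicate 2, and 1 with the covariate. Over all tested genes the share lower was 10.5% with every library, 6.28%, 5.65% and 6.39% without Stag2KO replicate 3, Stag2KO replicate 2 or Stag2WT replicate 2, 5.31% without the pair and 0.146% with the covariate, so 3 of 67 is no more than the share over all genes. A negative value was found in 54 of the 67, and the median log2 fold change was -0.17, beside -0.33 for the members and 0.01 for all genes. Pclaf, a PCNA-binding factor, had 81.3, 81.2 and 81.9 CPM in Stag2KO libraries, against 167, 196 and 194 CPM in Stag2WT libraries. This log2 fold change of -1.19 (SE 0.07, edgeR adjusted p = 0.000161) was larger than that of any of the 46 members. The origin recognition subunits Orc1 and Orc6 fell (-0.57 and -0.47), as did the firing factors Recql4 (-0.52), Wdhd1 (-0.36) and Dbf4 (-0.30), the last of which activates the CDC7 kinase. At the fork, Pole3 of polymerase epsilon (-0.41), the checkpoint mediator Clspn (-0.20), Rnaseh2c of the enzyme that removes ribonucleotides (-0.58), the nuclease Dna2 (-0.30) and topoisomerase Top2a (-0.28) fell. So did the histone chaperones Asf1b (-0.49), Nasp (-0.39) and Rbbp4 (-0.21). In the control of G1/S, E2f2 (-0.49), the S phase cyclin Ccna2 (-0.43) and the CDK inhibitor Cdkn2c (-0.40) fell. Each of these had an edgeR adjusted p from 0.00658 to 0.048.

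The 2 genes of those lists that rose are both known to restrain entry into S phase, and 1 of them lost its call in most fits on fewer libraries. Cdkn1c, which encodes the CDK inhibitor p57, had 5.35, 3.68 and 4.64 CPM in Stag2KO libraries, against 1.84, 1.80 and 1.38 CPM in Stag2WT libraries (log2 fold change 1.44, SE 0.21, edgeR adjusted p = 0.00368). Rbl2, which encodes the E2F-binding pocket protein p130, had 112, 115 and 115 CPM in Stag2KO libraries, against 105, 89.9 and 95.9 CPM in Stag2WT libraries (0.24, SE 0.07, adjusted p = 0.0412). All Stag2KO libraries were higher in both genes. Cdkn1c passed in all 6 fits that leave out a library, with adjusted p of 0.00596 to 0.0143, but not with the covariate (0.0636), and the filter of 5 CPM removes it. Rbl2 passed only without Stag2WT replicate 1 among those 6 fits (adjusted p of 0.0778 to 0.116 in the other 5). Of 30 mitosis genes, 9 fell, 1 rose and 20 did not pass, with a median of -0.19. The 9 became 4, 2 and 3 without Stag2KO replicates 1, 2 or 3, and 7, 5 and 4 without Stag2WT replicates 1, 2 or 3. They became 2 without both Stag2KO replicate 3 and Stag2WT replicate 2, and 0 with the covariate. Over all tested genes the share lower was 6.13%, 5.65%, 6.28%, 7.67%, 6.39% and 8.18% in the same order. It was 5.31% without the pair and 0.146% with the covariate, from 10.5% with every library. A count of 2 in 30 is thus close to the share over all genes. The proliferation antigen Mki67 had 1089, 1182 and 1076 CPM in Stag2KO libraries, against 1253, 1231 and 1305 CPM in Stag2WT libraries (-0.18, adjusted p = 0.125). Its groups did not overlap. The one mitosis gene that rose was Pttg1, which encodes securin (0.89, edgeR adjusted p = 0.00501). Mki67 and Pttg1 were picked after their values were seen.

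**Figure D4:**
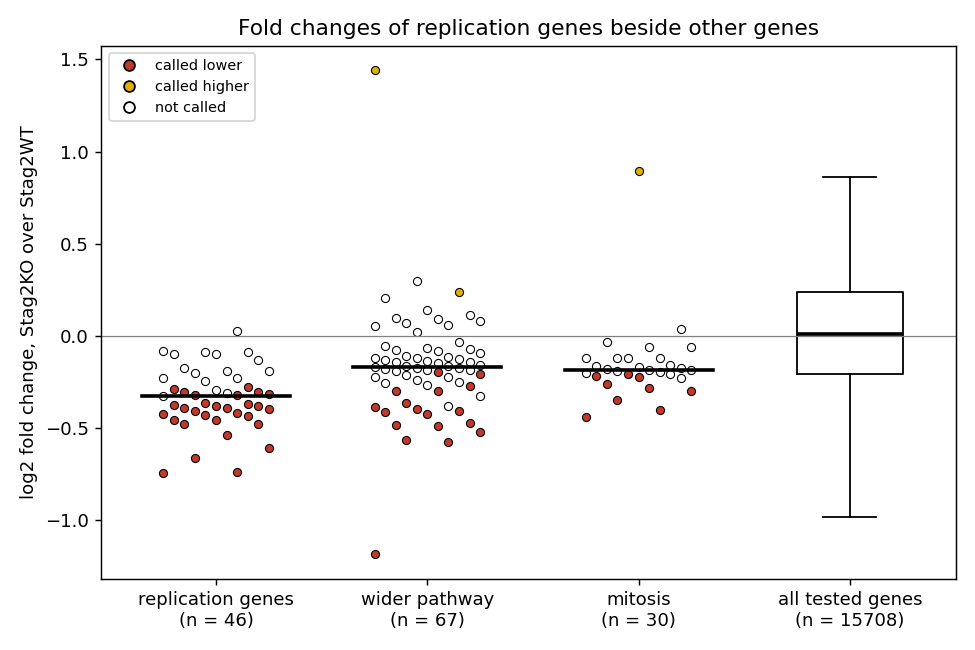
Log2 fold change, Stag2KO over Stag2WT, of each of the 46 replication genes, 67 other pathway genes and 30 mitosis genes, with a line at each median, beside a box (median, quartiles and whiskers) for all 15708 tested genes. The medians are -0.33, -0.17 and -0.19, against 0.01 for all genes.

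Lists of markers of 10 cell types or groups of types were examined, and several differed between the groups. Of 15 erythroid progenitor markers 7 fell and 0 rose, and their summed level was 3804, 3814 and 2967 CPM in Stag2KO libraries, against 5095, 6478 and 3945 CPM in Stag2WT libraries. The 7 became 1 without Stag2KO replicate 1, Stag2KO replicate 2 or Stag2WT replicate 1, 2 without Stag2KO replicate 3, 3 without Stag2WT replicate 2 and 8 without Stag2WT replicate 3. Over all tested genes the share lower in these fits was 6.13%, 5.65%, 7.67%, 6.28%, 6.39% and 8.18%, in the same order. A count of 1 in 15 is thus close to the share over all genes. With every library 10.5% of all tested genes were lower and 10.7% higher. As with the replication genes, the erythroid sum was lowest in Stag2KO replicate 3 and highest in Stag2WT replicate 2. The sums of the mitosis genes and of the wider pathway had the same lowest and highest library. The erythroid factor Klf1 had 101, 105 and 83.3 CPM in Stag2KO libraries, against 159, 222 and 127 CPM in Stag2WT libraries (log2 fold change -0.81, edgeR adjusted p = 0.044), while Gata1 did not pass (-0.39, adjusted p = 0.121). Of 15 B lymphocyte markers 13 fell and 0 rose, with sums of 180.4 to 196 CPM in Stag2KO and 413 to 546 CPM in Stag2WT. Of 15 monocyte and macrophage markers 12 fell and 0 rose, with sums of 936 to 1041 CPM in Stag2KO and 1669 to 1915 CPM in Stag2WT. In the other direction, 6 of 15 neutrophil precursor markers rose and 0 fell (sums of 18443 to 25120 CPM in Stag2KO and 16384 to 17574 CPM in Stag2WT), as did 6 of 14 stem and early progenitor markers, with 0 lower (885 to 1031 CPM in Stag2KO and 729 to 861 CPM in Stag2WT). Among the stem and early progenitor markers Cd34 rose (0.53, edgeR adjusted p = 0.0222) and Kit did not pass (0.05). The 6 neutrophil precursor markers became 1 to 7, and the 6 stem and early progenitor markers 3 to 5, when 1 library was left out, with the lowest counts without Stag2KO replicate 3 for neutrophil markers and without Stag2WT replicate 1 or 2 for stem and early progenitor markers. In those fits 962 to 1256 of the 15960 to 16066 genes tested were higher, from 1686 of 15708 with every library. A count of 1 in 15 neutrophil precursor markers is thus close to the share over all genes. With every library Elane, Mpo, Prtn3, Ctsg, Cebpe and Gfi1 rose. Of the 9 neutrophil precursor markers that did not pass, 4 had negative fold changes, namely S100a8 (-0.26), S100a9 (-0.12), Mmp8 (-0.62) and Ly6g (-0.61). Of 13 eosinophil, basophil and mast cell markers 7 rose and 3 fell, and their sum was 7408, 5588 and 5777 CPM in Stag2KO libraries, against 4325, 4196 and 3856 CPM in Stag2WT libraries. Epx, Prg2, Ear1, Ear2, Il5ra, Ms4a2 and Hdc rose, and Prss34, Mcpt8 and Fcer1a fell. Of 13 stroma and endothelium markers 8 fell and 3 rose, with sums of 244 to 279 CPM in Stag2KO and 367 to 412 CPM in Stag2WT. Of 12 T and natural killer cell markers 4 fell and 1 rose, with sums of 360.0 to 452 CPM in Stag2KO and 292 to 350.2 CPM in Stag2WT. Most of these sums was Nkg7, the gene that rose, with a mean of 296 CPM in Stag2KO and 198 CPM in Stag2WT. Cd3e, Cd3g, Cd8a and Thy1 fell. The genes named for this list, for the neutrophil precursor list and for the eosinophil, basophil and mast cell list were added after their values were seen. Of 9 dendritic cell markers 3 fell and 0 rose (450.3 to 832 CPM in Stag2KO and 576 to 843 CPM in Stag2WT), and of 11 megakaryocyte and platelet markers 3 rose and 0 fell (486 to 604 CPM in Stag2KO and 383 to 489.5 CPM in Stag2WT). No marker of the 10 lists was at 0 in all libraries. With the covariate, 1 B lymphocyte marker and 1 monocyte and macrophage marker fell, and 2 eosinophil, basophil and mast cell markers rose. No other marker of the 10 lists passed in that fit, in which only 67 genes of the whole table passed. The part of these cell types in the level of the replication genes was not tested.

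**Figure D5:**
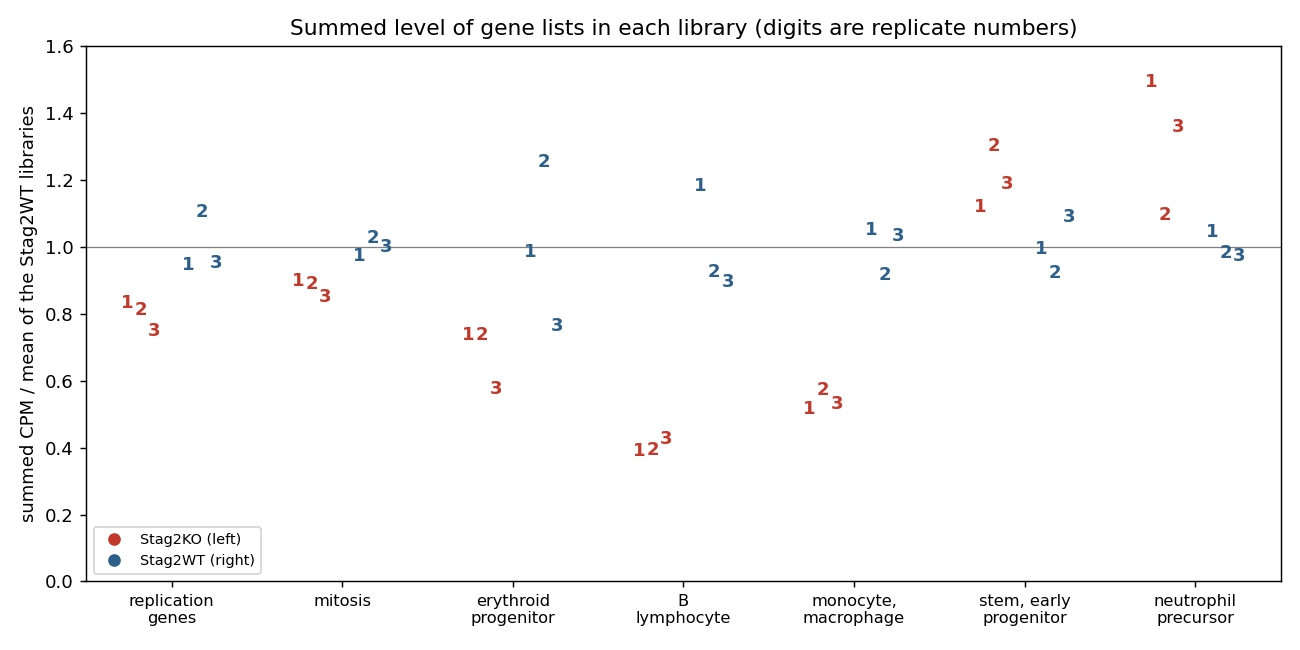
Summed CPM of the replication genes, the mitosis genes and 5 cell type marker lists in each library, divided by the mean of the 3 Stag2WT libraries, with digits for replicate numbers, Stag2KO left and Stag2WT right. The replication genes, the mitosis genes and the erythroid markers share their lowest library, Stag2KO replicate 3, and their highest, Stag2WT replicate 2.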

How the data were processed

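The data are the raw counts that the authors deposited, 1 whole number per gene symbol and library, in 6 libraries. The submitters' processing notes list the build mm9 and the tools STAR 2.4, HTSeq 0.6.1 and DESeq2, and no source used here names the annotation or the strand setting. The labels' protocols describe library kits for other cell populations, so levels of single genes were compared only within a gene. Sums and ratios join the levels of different genes and were compared only between libraries. The members, steps and lists were chosen with earlier results of these data known.

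Counts were analysed with edgeR 4.0.16 (R 4.3.3): genes were kept by filterByExpr, scaled by TMM, and fitted with a robust quasi-likelihood model of genotype over all 6 libraries, after a check of the script on simulated data. P-values were adjusted by Benjamini-Hochberg over all 15708 genes. Summary rows of the table (reads in no gene, ambiguous or not unique) stayed out of library sizes; reads in no gene made up 8.81% to 12.8% of each library. Replicate numbers follow the order of the deposited labels and pair nothing. No 2 libraries agreed within sampling noise (chi-square over its degrees of freedom was 20.8 to 43.3 for pairs of replicates).

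Alternatives were median-ratio scaling, 2 other filters, DESeq2 1.42.0, limma-voom (limma 3.58.1), a non-robust fit, a covariate and leaving out each library. Values in every library are given for members that passed, up to 4 per step by p; of the wider lists, up to 3 genes per list that passed are named by p, with the 2 left over added, and 1 that passed is not reported here. Copies and overlapping genes were looked up in GENCODE M21 on GRCm38 with blastn 2.17.0, for the members only. Not every copy or overlap found is given here. Promoters came from RefSeq on GRCm38.p6, and no coordinates were moved between builds. Ticrr was matched to no single row, and Pclaf was read under its older symbol 2810417H13Rik. A comparison of protein sequences was not run.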

Additional observations from a re-analysis of the deposited data

How the results depend on the processing

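The count of members that fell was 29 with median-ratio scaling, without a filter, with a filter of 5 CPM in 3 libraries and with a non-robust fit, 28 with limma-voom and 32 with DESeq2. The share of all tested genes that fell was 10.82%, 7.101%, 11.38%, 10.28%, 9.989% and 13.02% in the same order. It was 10.5% in the main edgeR fit. The higher count with DESeq2 thus came with a higher share over all tested genes. Without a filter 28 of the 29 were kept, with Ccne1 lost (adjusted p = 0.102) and Tyms gained (0.0473); the non-robust fit also kept 28, with Gins1 lost (0.0548) and Chaf1a gained (0.048), and limma-voom lost Gins1 (0.0578). Stag2 fell in every fit tried. With the share of reads in no gene as a covariate, 0 members, 67 genes (23 lower, 44 higher) and 1 lower and 0 higher of the wider pathway passed; the medians were -0.18 for the clamp and its loader and -0.27 for nucleotide supply, and the fold changes of Pold1 and Rpa3 were 0.00397 and 0.0352. With the filter of 5 CPM, 1 wider pathway gene rose.

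Leaving out 1 library gave 7 to 27 members, 1967 to 2548 genes (902 to 1311 lower, 962 to 1256 higher) and 11 to 15 lower and 1 to 2 higher genes of the wider pathway. Medians ranged from -0.27 to -0.12 for the polymerases, -0.32 to -0.20 for the clamp and loader and -0.51 to -0.29 for nucleotide supply. The difference in the log2 ratio of Cdt1 to Gmnn, Stag2KO minus Stag2WT, ranged from -0.0227 to 0.085, being -0.0227 without Stag2KO replicate 1 and -0.00274 without Stag2WT replicate 1, and the difference for Rrm2 to Rrm1 from -0.00167 to 0.0737. The fold change of Rfc2 ranged from -0.0341 to 0.0861, and was -0.0341 without Stag2KO replicate 1 and -0.0178 without Stag2WT replicate 3.

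Without Stag2KO replicate 3 and Stag2WT replicate 2 together, 9 members, 1397 genes (839 lower, 558 higher) and 3 lower and 1 higher wider pathway genes passed, and the median was -0.21. By step the medians were -0.23 (MCM ring), -0.21 (activation), -0.0846 (polymerases), -0.18 (clamp), -0.18 (RPA), -0.34 (Okazaki), -0.22 (nucleotides), -0.19 (chromatin) and -0.41 (G1/S), and Pold2 was at 0.00313. The causes were not tested. No paired analysis was possible because the labels give no replicate numbers that tie libraries across the groups. Only 3 libraries a group limit the precision.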
